A study of Homo sapiens with 18 samples.

Results

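The metallothionein genes described here are MT1E, MT1F, MT1G, MT1M, MT1X and MT2A, 6 of the 58735 genes in a table of raw counts. The cells were PODO/TERT256, human podocytes made immortal with telomerase. The 6 genes were chosen by gene symbol, matched through the Ensembl identifier, with earlier results of these data known. All 6 had counts, and 5 of the 6 passed the filter on low counts that left 16129 genes for testing. MT1G did not pass. Podocytes are the epithelial cells that wrap the capillaries of the kidney glomerulus. In this study the line was grown on 3D hemispheres in 6 groups of 3 libraries each, 18 in all. In the order used below, these were cells on a fractal surface with macrophages derived from the monocytic leukaemia line THP-1 (fractal THP-1), cells on a smooth surface with the same macrophages (smooth THP-1), cells on a fractal surface given the cytokines TNF-α and IL-6 (fractal cytokines), cells on a smooth surface given these cytokines (smooth cytokines), untreated cells on a fractal surface (fractal control) and untreated cells on a smooth surface (smooth control). All groups share the 1 immortalised line, which is a limit on it as a model, and neither doses nor exposure times are given in the sources used here. Whether replicate libraries stem from separate cultures is not stated in the labels. The p-values then measure only how far these libraries vary, which may be technical variation.

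Metallothioneins are small cytosolic proteins in which a large share of the residues are cysteines. These bind zinc and copper, and also cadmium, and so buffer free metal in the cell. Their genes are switched on when free zinc rises and binds the transcription factor MTF1, which acts at short metal response elements in their promoters, and also by glucocorticoids and by cytokines such as IL-6. In the kidney they are best known for binding cadmium in the tubule.

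The family sits together on chromosome 16, where all 6 members lie within 76.0 kb. In GRCh38 with the GENCODE 29 annotation, MT2A spans 56608199 to 56609497, MT1E 56625475 to 56627112, MT1M 56632233 to 56633986, MT1F 56657694 to 56660698 and MT1X 56682424 to 56684196, all on the plus strand, and MT1G spans 56666731 to 56668065 on the minus strand. MT1X is the 1 member that overlaps another annotated gene, an unnamed gene on the same strand with 0 counts in all 18 libraries. Each member has 3 exons and a coding sequence of 186 bases, with 61 codons before the stop. Of these codons 20 encode cysteine, or 32.8%. The coding sequences of the 4 members with the most counts follow, because their likeness bears on how far the counts of each can be told apart. Capitals mark the cysteine codons, read from the GENCODE 29 transcripts, 5′ to 3′:
MT2A: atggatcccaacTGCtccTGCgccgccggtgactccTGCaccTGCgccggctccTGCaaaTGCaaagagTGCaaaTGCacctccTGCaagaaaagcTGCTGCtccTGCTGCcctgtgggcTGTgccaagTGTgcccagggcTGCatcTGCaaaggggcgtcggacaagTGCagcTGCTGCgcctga
MT1E: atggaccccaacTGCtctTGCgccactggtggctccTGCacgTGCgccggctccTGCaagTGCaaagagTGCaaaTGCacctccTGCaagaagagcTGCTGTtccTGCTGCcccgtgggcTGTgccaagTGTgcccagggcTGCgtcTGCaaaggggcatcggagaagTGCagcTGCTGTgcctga
MT1X: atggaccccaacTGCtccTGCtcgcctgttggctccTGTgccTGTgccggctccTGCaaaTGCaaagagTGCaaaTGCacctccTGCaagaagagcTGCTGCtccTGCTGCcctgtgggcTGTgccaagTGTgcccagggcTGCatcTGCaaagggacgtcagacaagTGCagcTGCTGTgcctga
MT1F: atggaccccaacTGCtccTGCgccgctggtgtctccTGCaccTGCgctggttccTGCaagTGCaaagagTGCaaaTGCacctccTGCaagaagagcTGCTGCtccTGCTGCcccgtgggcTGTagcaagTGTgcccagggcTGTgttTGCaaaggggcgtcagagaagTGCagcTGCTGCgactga

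Between pairs of the 6 members, 88.7% (MT1F and MT1X) to 95.2% (MT1G and MT2A) of the coding bases were identical, and MT1E and MT2A shared 92.5%. The cysteine codons stand at the same places in all 6 sequences. Paralogs can therefore share reads. A window of 150 bases, the length of 1 read here, was never found letter for letter in a transcript of another gene for MT2A, MT1E, MT1F, MT1M or MT1G. For MT1X, 17 of 301 such windows were shared, all with the overlapping gene that had no counts. At 50 bases the shared portion was 45.1% of windows for MT1X and 20.2% for MT1G, against 4.89% for MT2A and 5.34% for MT1E. How the authors treated reads that map to more than 1 place is not given in the sources used here, so the levels of MT1X and MT1G are the less certain ones.

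Promoter sequences were at hand for MT2A and MT1X, in the RefSeq table of GRCh38.p14, from 250 bases before the start to 50 after it. They are shown because the metal response element is the motif the family is known for. Capitals mark its core, TGCACNC or TGCGCNC on either strand, at chr16:56608334-56608633 for MT2A and chr16:56682220-56682519 for MT1X, both on the plus strand:
MT2A promoter: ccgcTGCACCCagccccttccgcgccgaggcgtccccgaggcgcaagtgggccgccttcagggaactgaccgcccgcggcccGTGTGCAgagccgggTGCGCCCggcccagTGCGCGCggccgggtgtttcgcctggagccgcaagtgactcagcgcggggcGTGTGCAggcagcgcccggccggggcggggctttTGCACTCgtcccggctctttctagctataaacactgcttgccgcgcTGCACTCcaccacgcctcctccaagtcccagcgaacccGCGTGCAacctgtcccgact
MT1X promoter: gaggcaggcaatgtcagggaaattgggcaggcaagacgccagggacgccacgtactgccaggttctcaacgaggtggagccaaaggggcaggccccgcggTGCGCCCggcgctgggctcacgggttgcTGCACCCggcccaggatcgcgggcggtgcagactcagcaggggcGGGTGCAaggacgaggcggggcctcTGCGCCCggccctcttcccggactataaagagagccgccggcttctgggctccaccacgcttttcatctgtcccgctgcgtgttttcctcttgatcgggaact

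The MT2A window holds 8 cores and the MT1X window 4. Of 35116 promoter windows of the same length, 29.6% hold at least 1, 0.601% hold at least 4 and 0.0199% hold at least 8. The core of the antioxidant response element, TGACNNNGC, occurs 1 time in each window and in 13.3% of all windows. The STAT core TTCNNNGAA occurs 1 time in the MT2A window and 0 times in the MT1X window, and is found in 7.66% of all windows. No match overlapped a match of another motif. These are matches of letters and do not show that a factor binds there.

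**Figure D1:**
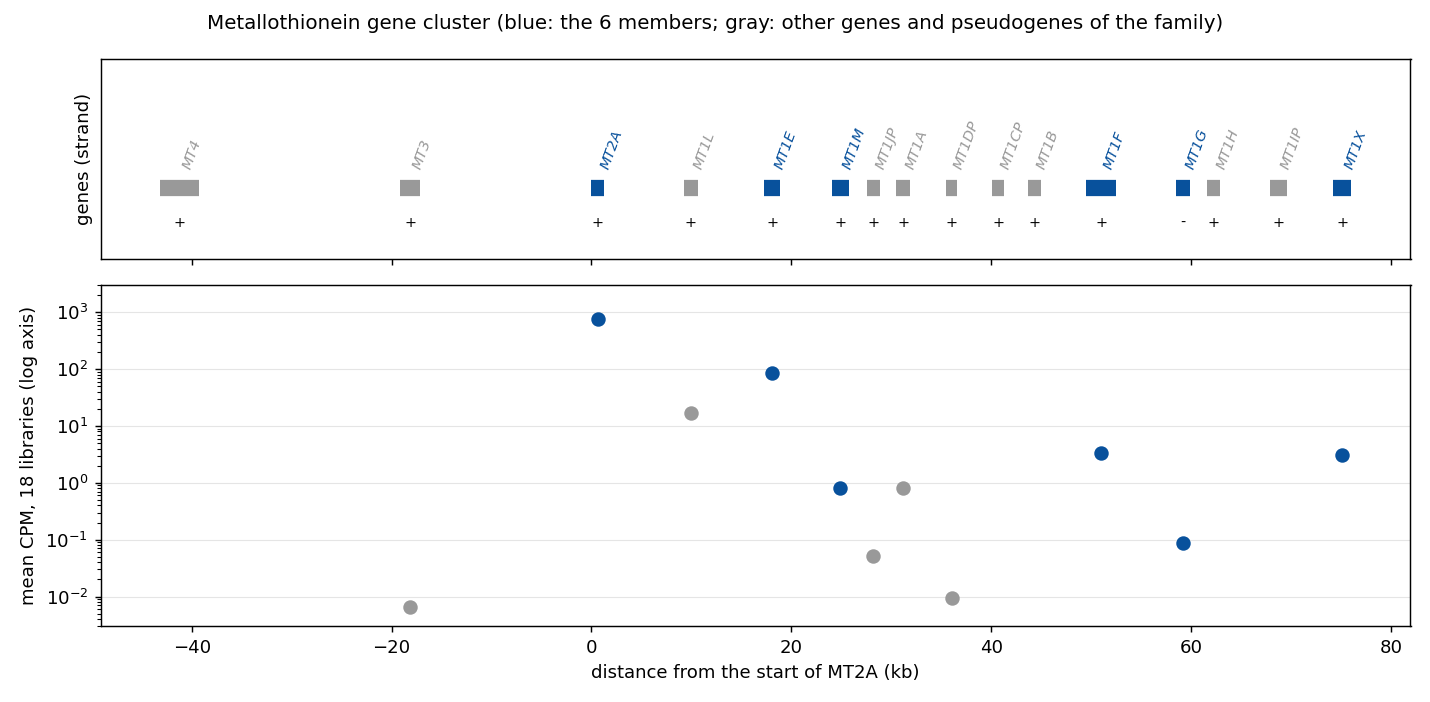
The upper panel places the metallothionein genes and pseudogenes of chromosome 16 by distance from the start of MT2A in kb, with their strand, and the lower panel gives each gene's mean CPM over the 18 libraries on a log axis (genes with no count have no point). MT2A stands highest and MT1E next, and the pseudogene MT1L, which lies between them, comes after both.

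Library totals ran from 11488204 to 21264180 counts. Fractal THP-1 replicate 3 and smooth cytokines replicate 2 stood apart from their groups: a chi-square test between libraries of the same group gave values per degree of freedom of 63.8 and 65.1 for pairs with the first and 35.9 and 36.6 for pairs with the second, against 2.52 to 12.4 for all other pairs. Mitochondrial transcripts took 0.847% of the counts in the first and 8.09% in the second, against 3.86% to 4.63% elsewhere. Member results whose call or direction changes without both libraries are given both ways. Among the podocyte markers, those of the cytoskeleton and surface (ACTN4, CD2AP, SYNPO and PODXL) were present, whereas NPHS1, which encodes the slit diaphragm protein nephrin, had 6 counts in the 18 libraries together. The summed level of 14 monocyte and macrophage markers ran from 18.4 to 22.5 CPM with fractal THP-1 and 38.2 to 41.7 CPM with smooth THP-1, against 1.82 to 5.08 CPM in the other 4 groups. All 9 of these markers that were tested were higher with THP-1 macrophages than in control on each surface. Over all tested genes, 50.5% were called in either direction on the fractal and 35.1% on the smooth surface. TYROBP, CD53 and SPI1 had 0 to 5 counts over each of the other groups and passed the filter only through the THP-1 groups. For such markers the direction was largely set in advance by the filter. TYROBP, AIF1 and CD163 had 0 counts in every cytokine and control library, and MRC1 had 0 counts in both THP-1 groups. Over the libraries of a group, AIF1 had only 3 counts with fractal THP-1 and 4 with smooth THP-1. CD68 had 1 and 2 counts there and LYZ 1 and 3, against 0 to 1 in every other group. CD14 was also called higher with smooth cytokines than in smooth control, and FCER1G with fractal cytokines than in fractal control. The part of macrophage RNA in each difference between THP-1 and control groups was not tested. In such bulk libraries, fewer cells of a type and less RNA per cell cannot be told apart.

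Metallothionein RNA in these cells was mostly MT2A, which took 89.3% of the counts of the 6 members over all libraries. MT1E took 9.89%, MT1F 0.393%, MT1X 0.359%, MT1M 0.0933% and MT1G 0.00968%. Per length, as FPKM (CPM divided by the length of all annotated exons in kb), MT2A had a level of 789 ± 78.0 in fractal control and 595 ± 14.9 in smooth control (SD, n = 3 each). On the same scale MT1E had a level of 111 ± 4.22 in fractal control and 75.6 ± 1.7 in smooth control. MT1F, MT1X and MT1M had levels between 0.428 and 4.04 FPKM in all 6 groups. Other levels are CPM (counts per 1e+06 counts) after scaling of the libraries, and differences are log2 fold changes with their standard error and an adjusted p from edgeR's quasi-likelihood test over all 16129 genes, called at a threshold of 0.05.

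**Figure D2:**
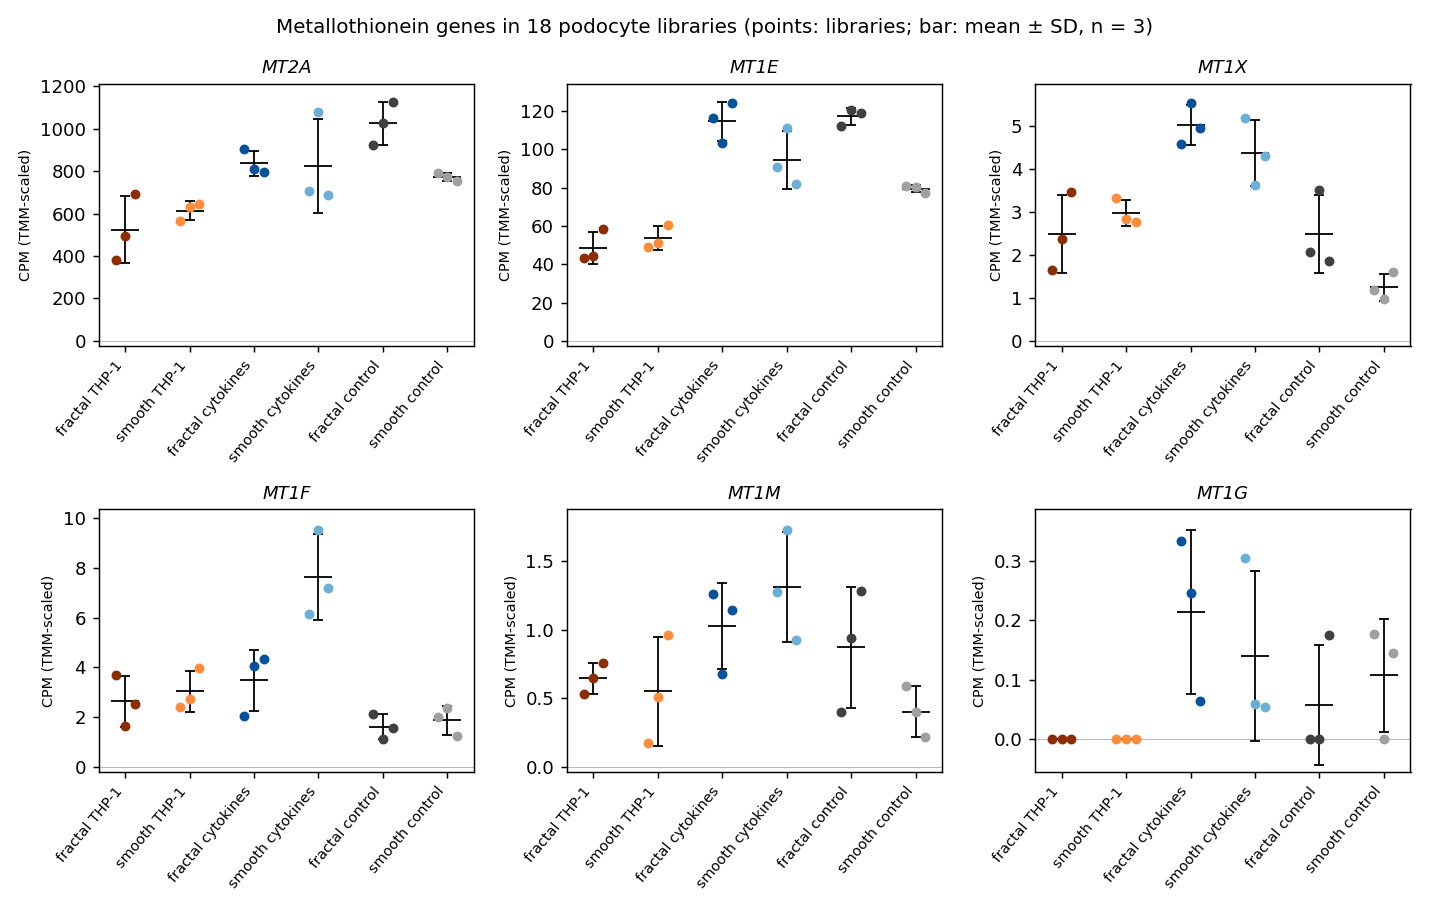
Each panel gives 1 member in CPM (linear axis from 0) in the 6 groups, with points for the 3 libraries and a bar for mean ± SD. MT2A and MT1E stand lowest in the THP-1 groups, whereas MT1X and MT1F stand highest in the cytokine groups.

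Without any treatment, MT1E rose on the fractal surface. It had 112, 120 and 119 CPM in the fractal control libraries, against 80.7, 80.4 and 77.4 CPM in the smooth control libraries. The groups did not overlap, and the log2 fold change of 0.56 ± 0.11 passed the threshold (1.47-fold, adjusted p = 0.00643). MT1E was called under every alternative and without each of the 6 libraries in turn. MT2A, the most abundant member, had 924, 1025 and 1127 CPM in fractal control, against 793, 774 and 754 CPM in smooth control. These groups did not overlap either, but the log2 difference of 0.41 ± 0.18 did not pass (adjusted p = 0.364). It passed without the 2 libraries that stood apart (adjusted p = 0.00557) and when only the 2 control groups were fitted (adjusted p = 0.0390), although both of those libraries are treated ones and enter here through the shared estimate of the spread alone.

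MT1X, another inducible member, had 2.07, 3.52 and 1.86 CPM in fractal control, against 1.18, 0.979 and 1.60 CPM in smooth control, again without overlap. The log2 difference was 1.01 ± 0.32 (adjusted p = 0.130), and it passed in the same 2 settings as MT2A (adjusted p = 0.0294 without the 2 libraries, 0.0193 with only the control groups). MT1M had a log2 difference of 1.08 ± 0.60 (adjusted p = 0.504) and MT1F of -0.24 ± 0.37 (adjusted p = 0.893). In all, 1 of the 5 tested members was called between the control surfaces, where 1.77% of all tested genes were called. The summed level of the 6 members, of which MT2A makes up most, was 1147 ± 105 CPM in fractal control and 857 ± 21.4 CPM in smooth control (SD, n = 3 each), a difference of 34%.

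Cytokines raised the minor members MT1F, MT1X and MT1M on the smooth surface and left no called difference in the major ones. MT1F had 6.16, 9.54 and 7.21 CPM with smooth cytokines, against 2.00, 2.36 and 1.23 CPM in smooth control. All 3 treated libraries lay above all 3 controls, and the gene rose 4.04-fold (log2 fold change 2.02 ± 0.34, adjusted p = 5.89e-05; 1.82 ± 0.33 without the 2 libraries that stood apart). MT1X had 5.18, 3.64 and 4.32 CPM with smooth cytokines, against 1.18, 0.979 and 1.60 CPM in smooth control. It rose 3.52-fold without overlap (log2 fold change 1.82 ± 0.32, adjusted p = 8.86e-05; 1.93 ± 0.32 without the 2 libraries). MT1M, which has few counts (3 to 29 in a library), had 1.28, 1.73 and 0.929 CPM with smooth cytokines, against 0.588, 0.403 and 0.218 CPM in smooth control. Its rise (log2 fold change 1.66 ± 0.59, adjusted p = 0.0387) was lost without the 2 libraries that stood apart (adjusted p = 0.0914), with no filter (0.0794), with the replicate number as a block (0.0519), and without any single library of these groups other than smooth cytokines replicate 3 (0.05005 to 0.158).

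Neither major member was called. MT2A had 705, 1076 and 685 CPM with smooth cytokines, against 793, 774 and 754 CPM in smooth control, so that the smooth cytokines library that stood apart held the highest value and the other 2 treated libraries the lowest. The log2 difference was 0.09 ± 0.18 (adjusted p = 0.781), and -0.15 ± 0.10 without the 2 libraries (adjusted p = 0.240). MT1E had 90.9, 111 and 81.6 CPM with smooth cytokines, against 80.7, 80.4 and 77.4 CPM in smooth control. All treated libraries lay above the controls, but the log2 difference of 0.25 ± 0.11 did not pass (adjusted p = 0.110), nor did that of 0.12 ± 0.08 without the 2 libraries (adjusted p = 0.282). The summed level was 930 ± 236 CPM with smooth cytokines and 857 ± 21.4 CPM in smooth control (SD, n = 3 each), a difference of 8.62% whose sign turned without smooth cytokines replicate 2 (log2 ratio -0.11). In all, 3 of the 5 tested members were called, all higher, where 25.7% of all tested genes were called.

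On the fractal surface, cytokines raised MT1F and MT1X as well, and again neither major member was called. MT1F had 2.06, 4.05 and 4.33 CPM with fractal cytokines, against 2.12, 1.13 and 1.57 CPM in fractal control. The lowest treated library lay within the control range. MT1F rose 2.18-fold (log2 fold change 1.13 ± 0.35, adjusted p = 0.0189). MT1X had 4.59, 5.53 and 4.96 CPM with fractal cytokines, against 2.07, 3.52 and 1.86 CPM in fractal control, without overlap. It rose 2.00-fold (log2 fold change 1.00 ± 0.29, adjusted p = 0.0110). Each call was lost when 1 of several single libraries was left out: for MT1X fractal control replicates 1 and 3 and fractal cytokines replicate 2 (adjusted p from 0.0574 to 0.0732), and for MT1F fractal control replicates 2 and 3 and fractal cytokines replicates 2 and 3 (adjusted p from 0.0584 to 0.110).

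MT2A had 905, 808 and 795 CPM with fractal cytokines, against 924, 1025 and 1127 CPM in fractal control. The groups did not overlap, and the log2 difference of -0.29 ± 0.18 did not pass (adjusted p = 0.263). It passed without the 2 libraries that stood apart (adjusted p = 0.0105) and with only the 2 groups compared (adjusted p = 0.000499). MT1E had a log2 difference of -0.03 ± 0.11 (adjusted p = 0.869) and MT1M of 0.23 ± 0.55 (adjusted p = 0.812). In all, 2 of the 5 tested members were called, both higher, where 25.8% of all tested genes were called. The summed level was 960 ± 60.3 CPM with fractal cytokines and 1147 ± 105 CPM in fractal control (SD, n = 3 each), a difference of -16.3%.

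Set against each other under cytokines, the surfaces differed in MT1F. Its 2.06, 4.05 and 4.33 CPM with fractal cytokines lay below the 6.16, 9.54 and 7.21 CPM with smooth cytokines without overlap, and it was lower on the fractal surface (log2 fold change -1.13 ± 0.32, adjusted p = 0.0405). The call was narrow: it was lost with the replicate number as a block (adjusted p = 0.0573), without the 2 libraries that stood apart (adjusted p = 0.05004), and without any single library of these groups other than smooth cytokines replicate 1 (adjusted p from 0.0516 to 0.233). MT1E, with 116, 103 and 124 CPM on fractal cytokines against 90.9, 111 and 81.6 CPM on smooth cytokines, had a log2 difference of 0.28 ± 0.11 (adjusted p = 0.221). Without the 2 libraries that stood apart it was higher on the fractal surface (log2 fold change 0.41 ± 0.08, adjusted p = 0.000182), and without smooth cytokines replicate 2 alone too (adjusted p = 0.0374). In all, 1 of the 5 tested members was called, where 4.46% of all tested genes were called.

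The test of whether the response to cytokines differed between the surfaces called 0 of the 5 tested members with edgeR, DESeq2 and limma-voom, and 0 had an unadjusted p below 0.05; of all tested genes 2.7% were called. The log2 differences were -0.89 ± 0.49 for MT1F, -0.81 ± 0.43 for MT1X and -1.43 ± 0.81 for MT1M (adjusted p from 0.429 to 0.478). A difference in their response is therefore not shown.

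**Figure D3:**
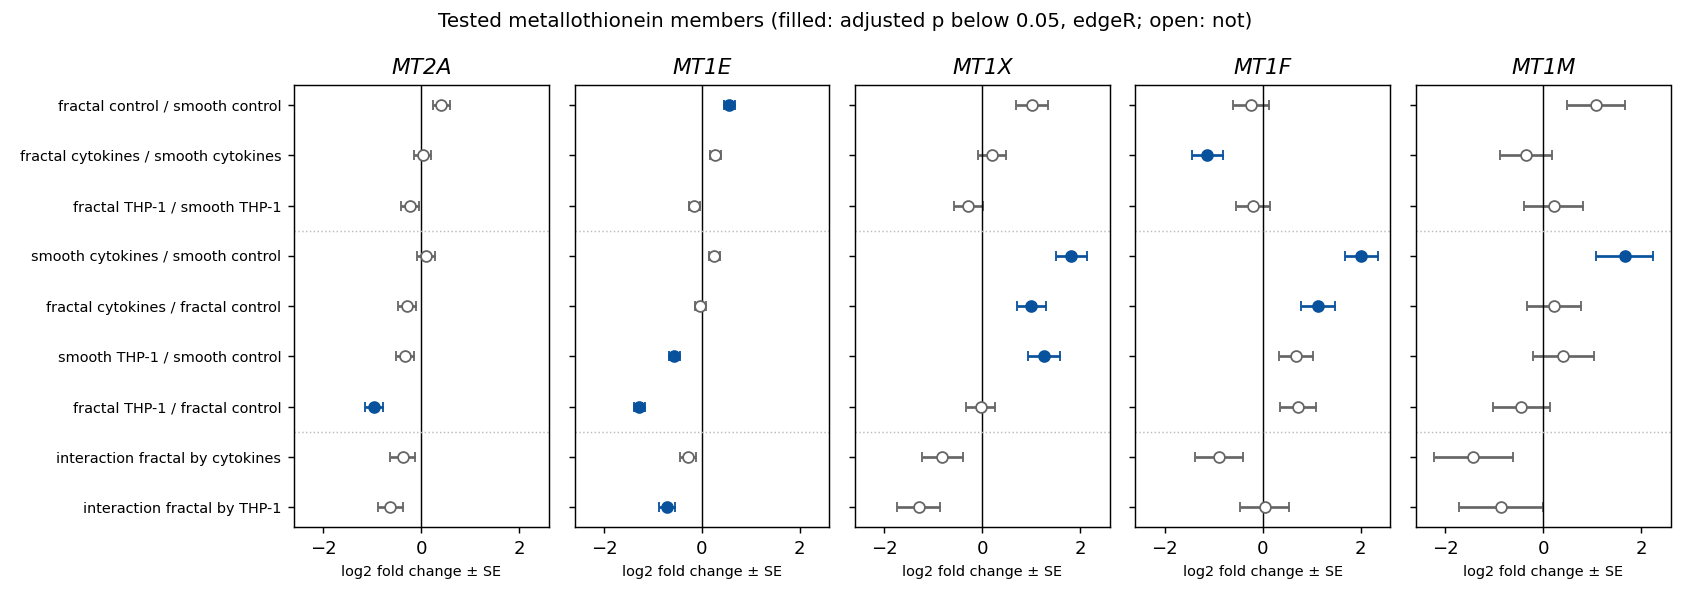
Log2 fold changes with their standard error (horizontal axis) for the 5 tested members in the 9 comparisons (rows); filled points passed the threshold of 0.05 and open points did not. MT1E and MT2A lie below 0 with THP-1 macrophages on the fractal surface, and MT1X and MT1F lie above 0 with cytokines on both surfaces.

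With THP-1 macrophages, MT1E fell on both surfaces and MT2A on the fractal one. Markers of podocytes and of other cells moved beside them. The summed level of the 9 podocyte markers ran from 878 to 1027 CPM with fractal THP-1 and 1486 to 1494 CPM in fractal control, and from 1299 to 1468 CPM with smooth THP-1 and 1439 to 1512 CPM in smooth control. Of the 5 tested, PODXL, ACTN4 and CD2AP fell on the fractal surface (to 0.256, 0.616 and 0.809 of control) and PODXL and CD2AP on the smooth one. The summed level of 5 endothelial markers ran from 14.5 to 21.05 CPM with fractal THP-1 and 8.50 to 12.1 CPM in fractal control, and from 23.2 to 24.4 CPM with smooth THP-1 and 9.86 to 11.7 CPM in smooth control. These markers did not move together. Of the 4 tested, PECAM1 rose 32.05-fold and KDR fell to 0.271 of control on the fractal surface, where the median log2 change was -0.67. On the smooth surface PECAM1 (13.46-fold) and CDH5 (1.94-fold) rose. No other endothelial marker was called on either surface. The part of these shifts in the metallothionein results was not tested. On the fractal surface MT2A had 381, 493 and 693 CPM with THP-1 macrophages, against 924, 1025 and 1127 CPM in control. The highest treated value, from the library that stood apart, still lay below all controls. MT2A fell by 0.97 ± 0.18 on the log2 scale (0.509 of control, adjusted p = 0.000237), and by 1.24 ± 0.10 without the 2 libraries that stood apart (adjusted p = 4.20e-09). MT1E had 43.3, 44.1 and 58.2 CPM with fractal THP-1, against 112, 120 and 119 CPM in fractal control, with a wide gap between the groups. It fell by 1.28 ± 0.11 on the log2 scale (0.413 of control, adjusted p = 1.36e-09), and by 1.43 ± 0.08 without the 2 libraries (adjusted p = 9.50e-20).

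No minor member was called on the fractal surface. MT1X had 1.64, 2.36 and 3.46 CPM with fractal THP-1, against 2.07, 3.52 and 1.86 CPM in fractal control. The log2 difference was -0.03 ± 0.30 (adjusted p = 0.938). With upper-quartile scaling the log2 difference was 0.05 and was not called either. MT1F had 3.70, 1.66 and 2.53 CPM with fractal THP-1, against 2.12, 1.13 and 1.57 CPM in fractal control, with a log2 difference of 0.72 ± 0.36 (adjusted p = 0.0986). It passed without fractal THP-1 replicate 2 (adjusted p = 0.0332). MT1M had a log2 difference of -0.45 ± 0.58 (adjusted p = 0.544). In all, 2 of the 5 tested members were called, both lower, where 50.5% of all tested genes were called, so that share is no larger than that of all genes. The summed level was 577 ± 166 CPM with fractal THP-1 and 1147 ± 105 CPM in fractal control (SD, n = 3 each), a difference of -49.7%.

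On the smooth surface MT1E had 49.2, 51.2 and 60.7 CPM with THP-1 macrophages, against 80.7, 80.4 and 77.4 CPM in control. It fell by 0.57 ± 0.11 on the log2 scale without overlap (0.675 of control, adjusted p = 0.000349). MT2A had 564, 633 and 643 CPM with smooth THP-1, against 793, 774 and 754 CPM in smooth control, also without overlap. Its log2 difference of -0.33 ± 0.18 did not pass (adjusted p = 0.166), but it passed without the 2 libraries that stood apart (adjusted p = 0.00331) and with only the 2 groups compared (adjusted p = 1.67e-07). MT1X went the other way: it had 3.32, 2.85 and 2.77 CPM with smooth THP-1, against 1.18, 0.979 and 1.60 CPM in smooth control. It rose 2.40-fold (log2 fold change 1.26 ± 0.32, adjusted p = 0.00318). MT1F had a log2 difference of 0.68 ± 0.35 (adjusted p = 0.138) and MT1M of 0.41 ± 0.63 (adjusted p = 0.657). In all, 2 of the 5 tested members were called, 1 in each direction, where 35.1% of all tested genes were called.

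The response of MT1E to THP-1 macrophages differed between the surfaces. The interaction, which is the log2 change on the fractal surface minus that on the smooth one, was -0.71 ± 0.16 (adjusted p = 0.00354), so MT1E fell further on the fractal surface, where its control level was higher. The call held in every setting tried and without each of the 12 libraries in turn (interaction from -0.86 to -0.62). For MT2A the interaction was -0.64 ± 0.25 (adjusted p = 0.114), and -0.90 ± 0.13 without the 2 libraries that stood apart (adjusted p = 4.46e-05). It also passed without fractal THP-1 replicate 3 alone (adjusted p = 0.0216) and with limma-voom (adjusted p = 0.0407). For MT1X it was -1.30 ± 0.44 (adjusted p = 0.0527), and -1.59 ± 0.44 without those libraries (adjusted p = 0.00597). It also passed with DESeq2 (adjusted p = 0.0323) and without fractal THP-1 replicate 3, fractal control replicate 3 or smooth control replicate 3 (adjusted p from 0.00759 to 0.0454). In all, 1 of the 5 tested members was called, where 13.2% of all tested genes (2134) were called. Without the 2 libraries 3 of 5 were called, and the calls over all genes rose as well, to 3642.

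With macrophages on both surfaces, no member was called between them. MT1E had 43.3, 44.1 and 58.2 CPM with fractal THP-1, against 49.2, 51.2 and 60.7 CPM with smooth THP-1 (log2 difference -0.15 ± 0.12, adjusted p = 0.401). MT2A had 381, 493 and 693 CPM with fractal THP-1, against 564, 633 and 643 CPM with smooth THP-1 (log2 difference -0.23 ± 0.18, adjusted p = 0.418). For both genes the highest fractal value came from replicate 3. Of the 5 tested members 0 were called with edgeR, DESeq2 and limma-voom, and 0 had an unadjusted p below 0.05, where edgeR called 20% of all tested genes. Without the 2 libraries that stood apart, MT2A (log2 fold change -0.49 ± 0.10, adjusted p = 0.000869) and MT1E (-0.30 ± 0.09, adjusted p = 0.00623) were lower on the fractal surface. Without fractal THP-1 replicate 3 alone, MT1E passed (adjusted p = 0.0307) and MT2A did not (adjusted p = 0.0772).

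MT1G had 25 counts in all and was at 0 in 9 of the 18 libraries. Over the 3 libraries of a group it had 0 counts with fractal THP-1, 0 with smooth THP-1, 10 with fractal cytokines, 7 with smooth cytokines, 3 in fractal control and 5 in smooth control. A count of 0 over a group allows a level of up to 0.0655 CPM with fractal THP-1 and 0.0584 CPM with smooth THP-1 (3 counts over the group, counting error only). MT1G was not tested, so no difference between groups is given for it.

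Ordered by mean level over the 6 groups, MT2A and MT1E both ran from fractal control through fractal cytokines, smooth cytokines, smooth control and smooth THP-1 to fractal THP-1. For MT2A this rests on smooth cytokines replicate 2: without the 2 libraries that stood apart, MT2A averaged 695 CPM with smooth cytokines and 773 CPM in smooth control, whereas MT1E averaged 86.3 CPM with smooth cytokines and 79.5 CPM in smooth control. For MT2A, neighbours in this order overlapped in their range of libraries except between fractal control and fractal cytokines and between smooth control and smooth THP-1. For MT1E they overlapped except between smooth cytokines and smooth control and between smooth control and smooth THP-1. MT1X ran in another order, from fractal cytokines through smooth cytokines, smooth THP-1, fractal THP-1 and fractal control to smooth control, with gaps below smooth cytokines and above smooth control. MT1F was highest with smooth cytokines, apart from the rest, and the other 5 groups overlapped each with the next. For MT1M every group overlapped the next. MT2A made up 87.0% to 91.1% of the members' counts by group mean. MT1F took 0.827 ± 0.0868% of the members' counts with smooth cytokines and 0.217 ± 0.0645% in smooth control (SD, n = 3 each).

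Outside the 6 members, 7 of 13 other metallothionein genes and pseudogenes had a count, and 2 of these could be tested. MT1L, a transcribed pseudogene between MT2A and MT1E with 5120 counts in all, was lower in every treated group than in its control. It had 13.03 ± 1.38 CPM with fractal THP-1, 14.5 ± 2.53 CPM with fractal cytokines and 26.8 ± 1.82 CPM in fractal control (SD, n = 3 each), with log2 fold changes of -1.03 ± 0.17 (adjusted p = 1.62e-05) and -0.88 ± 0.17 (adjusted p = 0.000291). On the smooth surface it had 13.4 ± 3.07 CPM with THP-1 macrophages, 14.01 ± 3.31 CPM with cytokines and 19.3 ± 1.20 CPM in control (SD, n = 3 each), with log2 fold changes of -0.52 ± 0.17 (adjusted p = 0.0192) and -0.46 ± 0.17 (adjusted p = 0.0472). All 4 calls remained without the 2 libraries (log2 fold changes from -0.96 to -0.53).

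MT1A, a coding member of the family with 2 to 50 counts in a library, fell with smooth THP-1 (log2 fold change -2.78 ± 0.62, adjusted p = 0.00101). It also fell with smooth cytokines (-1.81 ± 0.57, adjusted p = 0.0193) and fractal cytokines (-1.58 ± 0.53, adjusted p = 0.0290). With fractal THP-1 the log2 difference from control of -1.06 ± 0.51 did not pass (adjusted p = 0.0885). MT1A was called lower in that comparison without the 2 libraries that stood apart. It had 0.850 ± 0.525 CPM with fractal THP-1 and 0.176 ± 0.0623 CPM with smooth THP-1 (SD, n = 3 each), a call (log2 fold change 2.19 ± 0.65, adjusted p = 0.0173) that was lost without the 2 libraries that stood apart (adjusted p = 0.0869). The other 5 genes with a count were MT2P1 with 22 counts, MT1XP1 with 16, MT1JP with 15, MT1DP with 3 and MT3, the brain form, with 2. MT1B, MT1CP, MT1H, MT1HL1, MT1IP and MT4 had none.

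**Figure D4:**
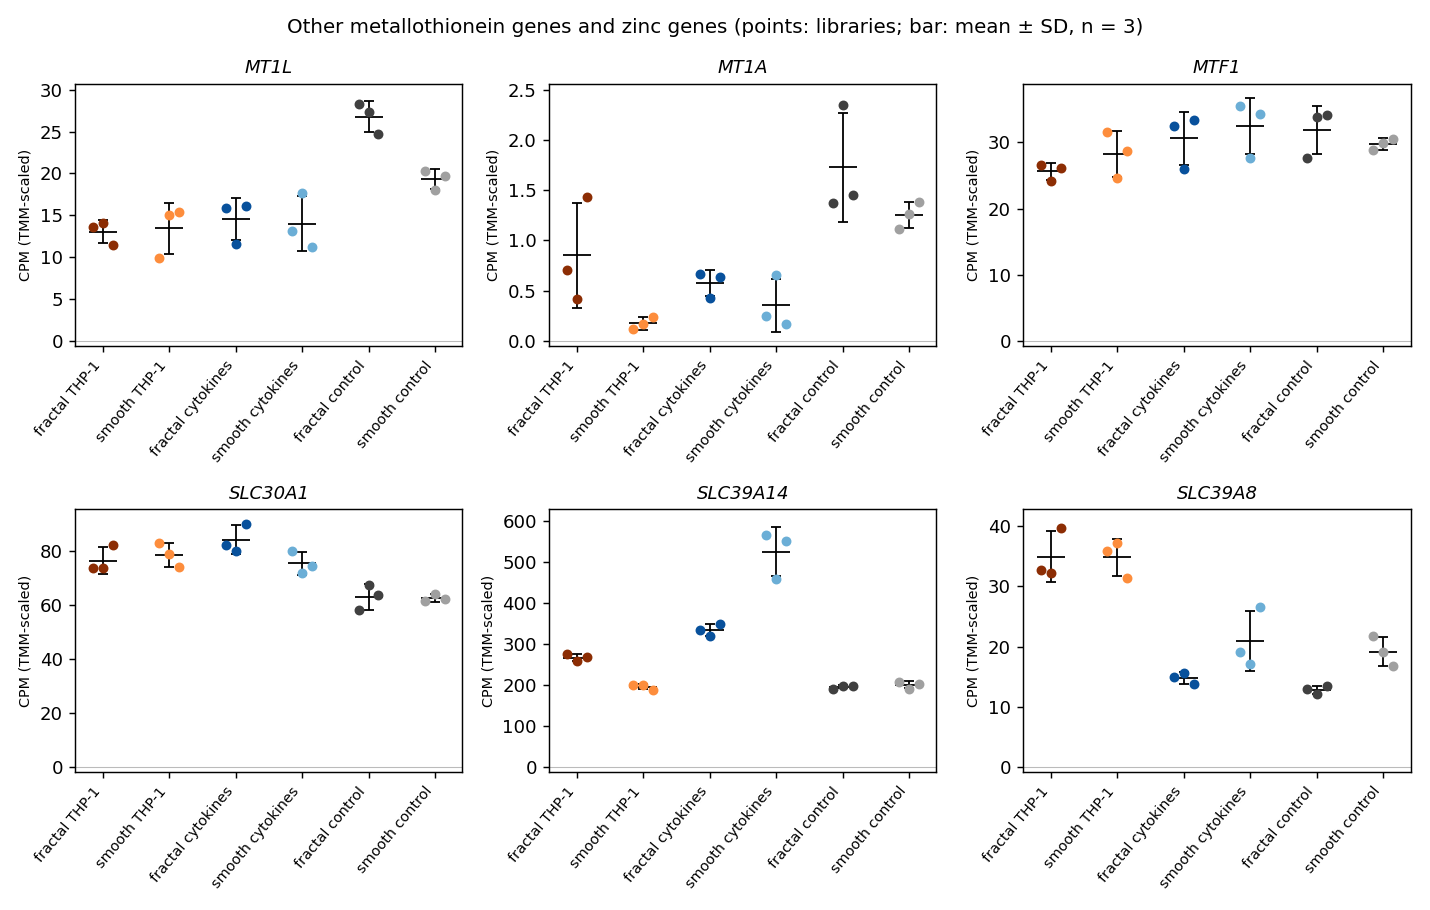
Each panel gives MT1L, MT1A, MTF1 or a zinc transporter in CPM (linear axis from 0) in the 6 groups, with points for the 3 libraries and a bar for mean ± SD. MT1L is highest in the controls, and SLC39A14 is highest with smooth cytokines.

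Of 25 genes for zinc sensing and transport, 18 could be tested. MTF1, the zinc-sensing factor that switches on metallothionein genes, had group means from 25.6 to 32.5 CPM. It was lower with fractal THP-1 than in fractal control (log2 fold change -0.31 ± 0.12, adjusted p = 0.0368) and was not called in the other 8 comparisons; without the 2 libraries the call remained (adjusted p = 0.0115). SLC39A14, which encodes the zinc importer ZIP14, rose with cytokines on both surfaces. SLC39A14 had 333 ± 14.2 CPM with fractal cytokines and 195 ± 3.96 CPM in fractal control, and 525 ± 58.9 CPM with smooth cytokines and 200.1 ± 8.85 CPM in smooth control (SD, n = 3 each). The log2 fold changes were 0.77 ± 0.08 (adjusted p = 4.12e-08) and 1.39 ± 0.08 (adjusted p = 9.99e-13). The rise was smaller on the fractal surface (interaction -0.62 ± 0.11, adjusted p = 0.00120). With THP-1 macrophages SLC39A14 was higher on the fractal surface, at 266 ± 8.64 CPM against 195 ± 6.30 CPM on the smooth one (SD, n = 3 each; log2 fold change 0.45 ± 0.08, adjusted p = 0.000141).

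SLC30A1, which encodes the exporter that carries zinc out of the cell and is itself a known target of MTF1, rose in all 4 treated groups against their controls by 0.27 to 0.42 on the log2 scale (adjusted p from 0.000375 to 0.0157). SLC39A8, which encodes the zinc importer ZIP8, rose with fractal THP-1 (log2 fold change 1.45 ± 0.14, adjusted p = 7.61e-09) and smooth THP-1 (0.86 ± 0.14, adjusted p = 3.14e-05). It was lower in fractal than in smooth control (-0.59 ± 0.15, adjusted p = 0.0332). SLC30A9 fell with fractal THP-1 (-0.62 ± 0.08, adjusted p = 1.22e-06) and smooth THP-1 (-0.58 ± 0.09, adjusted p = 6.12e-06). Of the 18 genes, 8 were higher and 2 lower with fractal THP-1, 4 higher and 1 lower with smooth THP-1, 5 higher and 1 lower with fractal cytokines and 4 higher and 2 lower with smooth cytokines, each against control. Over all tested genes 50.5%, 35.1%, 25.8% and 25.7% were called in these 4 comparisons. Without the 2 libraries that stood apart, 6 were higher and 3 lower with fractal THP-1, 8 higher and 2 lower with smooth THP-1, 5 higher and 3 lower with fractal cytokines and 9 higher and 2 lower with smooth cytokines. The shares over all genes in that fit are not given here, so these counts cannot be read as a trait of this list. The median log2 change of the 18 ran from 0.05 (fractal cytokines) to 0.25 (smooth cytokines), against 0.01 to 0.04 over all genes tested in these comparisons. Of the 35 calls of this list over the 9 comparisons 33 remained without the 2 libraries, and those of SLC39A3 and SLC39A11 with fractal THP-1 were lost (adjusted p = 0.235 and 0.225).

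The 2 other routes known to induce metallothioneins were looked at through lists of their own. Of 9 genes for the glucocorticoid receptor and its targets, 8 were higher and 0 lower with fractal cytokines, and 8 higher and 1 lower with smooth cytokines, each against control (median log2 change 0.65 and 0.53), where 25.8% and 25.7% of all tested genes were called. TSC22D3, a classical glucocorticoid target, rose by 1.85 ± 0.17 on the log2 scale with fractal cytokines (adjusted p = 7.91e-08) and by 1.18 ± 0.16 with smooth cytokines (adjusted p = 1.67e-05). HSD11B1, which makes active cortisol from cortisone, had 6.22 ± 1.64 CPM with fractal cytokines and 0.0313 ± 0.0542 CPM in fractal control, and 14.1 ± 5.89 CPM with smooth cytokines and 0.284 ± 0.259 CPM in smooth control (SD, n = 3 each). With THP-1 macrophages the list split: 3 were higher and 4 lower on the fractal surface, and 1 higher and 5 lower on the smooth one, where 50.5% and 35.1% of all tested genes were called. FKBP5, a glucocorticoid target, was higher in fractal than in smooth control (0.40 ± 0.07, adjusted p = 0.00145), and fell with fractal THP-1 (-1.28 ± 0.07, adjusted p = 9.20e-14) and smooth THP-1 (-0.63 ± 0.07, adjusted p = 7.52e-08), with an interaction of -0.65 ± 0.10 (adjusted p = 3.44e-05). FKBP5 was also higher with fractal cytokines (0.30 ± 0.07, adjusted p = 0.00162) and smooth cytokines (0.53 ± 0.07, adjusted p = 1.51e-06), and lower with fractal THP-1 than with smooth THP-1 (-0.25 ± 0.07, adjusted p = 0.0105). In the interaction with THP-1, 3 of the 9 genes were called higher and 1, FKBP5, lower, where 13.2% of all tested genes were called. Higher were KLF9 (log2 difference 0.83 ± 0.12, adjusted p = 3.07e-05), TSC22D3 (1.13 ± 0.24, adjusted p = 0.00324) and DUSP1 (0.34 ± 0.10, adjusted p = 0.0277). Between the surfaces with THP-1 macrophages, 4 were higher and 2 lower on the fractal one, where 20% of all tested genes were called. All 41 calls of this list over the 9 comparisons remained without the 2 libraries that stood apart.

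Of 5 genes of the IL-6 signal, 3 were higher and 0 lower with cytokines on each surface, where 25.8% of all tested genes were called on the fractal and 25.7% on the smooth one. SOCS3, a feedback inhibitor that STAT3 induces, rose with fractal cytokines (log2 fold change 1.03 ± 0.12, adjusted p = 3.70e-07) and smooth cytokines (1.14 ± 0.12, adjusted p = 6.43e-08). It also rose with fractal THP-1 (0.44 ± 0.12, adjusted p = 0.00397) and smooth THP-1 (0.48 ± 0.12, adjusted p = 0.00319). All 17 calls of this list over the 9 comparisons remained without the 2 libraries that stood apart.

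The genes whose profile over the 6 group means lay nearest to that of the summed metallothionein counts were ADAM19, CKAP4, SRI, NID1 and KDELR3. Their root mean square difference from it was 0.0597 to 0.0761 on the centred log2 scale, among 10657 genes with a mean of at least 5 CPM. ADAM19, CKAP4 and NID1 were also the 3 nearest to MT2A. The nearest to MT1E were CDK14, DCBLD1 and NQO1 (0.112 to 0.116), and to MT1X SNAI2, CACHD1 and RAB36 (0.192 to 0.246). The nearest to MT1F was TNFAIP3, an inhibitor of NF-kB signalling (0.0996), followed at a distance by CTHRC1 (0.301) and ZC3H12A (0.315). For MT1M they were DNAJC3, VASN and HES1 (0.182 to 0.193). The points compared are 6 group means from the same 18 libraries, so this is a description.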

How the data were processed

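The authors deposited raw counts per Ensembl gene for 18 libraries, with no normalization; the labels put each library in its group. Per the labels' protocols, RNA came from a kit for small samples, was selected by poly-T and was sequenced as paired reads of 150 bases without strand. Per the submitters' processing notes, CASAVA, HISAT2 2.0.5, featureCounts 1.5.0-p3 and GRCh38 (hg38) were used; their roles and the annotation are not given in the sources used here. Positions, lengths and coding sequences came from GENCODE 29, which held all 58735 genes.

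Counts were tested with edgeR 4.0.16 in R 4.3.3 (TMM scaling, filterByExpr with minimum count 10 and minimum total 15, 1 mean per group over all 18 libraries, 12 residual degrees of freedom, robust quasi-likelihood F-tests, Benjamini-Hochberg adjustment within each of 9 comparisons over all tested genes, threshold 0.05). The SE is the log2 fold change divided by the root of its F value. CPM carry TMM scaling, and nearest profiles use a prior count of 2. Alternatives were DESeq2 1.42.0, limma-voom (limma 3.58.1), RLE and upper-quartile factors, no filter, only the groups compared, the replicate number as a block, leaving out each library, and leaving out both libraries that stood apart. On simulated counts of 15300 genes, the test between the control surfaces found 68.1% of the 2-fold and 45.3% of the 1.5-fold changes, and called 3 unchanged genes. The members and lists were chosen with earlier results of these data known. Named are all members, the other family genes with a count, up to 3 genes of a list in each direction per comparison by adjusted p, and the genes with the nearest profiles; not every gene the rule allows is named. The main results use all 18 libraries. Sequences were matched with Biopython 1.88 in Python 3.11.15, and figures drawn with matplotlib 3.10.9.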

Additional observations from a re-analysis of the deposited data

Results flagged for a closer look

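The response of MT1E to THP-1 macrophages differed between the surfaces by a test of the difference itself. The interaction was -0.71 ± 0.16 on the log2 scale (edgeR's quasi-likelihood test, adjusted p = 0.00354), with changes of -1.28 ± 0.11 on the fractal and -0.57 ± 0.11 on the smooth surface. For MT1E all 3 THP-1 libraries lay below all 3 control libraries on each surface, and its control level was higher on the fractal one. The summed level of the 14 macrophage markers was 18.4 to 22.5 CPM with fractal THP-1 and 38.2 to 41.7 CPM with smooth THP-1. MRC1 had 0 counts in both groups. The part of macrophage RNA in the difference was not tested.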

How the results depend on the processing

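Among members past the threshold none changed direction under the alternatives, and of the tests of single members under the alternatives 644 kept their side of the threshold, 22 newly passed it and 22 no longer did. The count of members called between the control surfaces was 1 in the main test and 3 both without the 2 libraries that stood apart and with only the groups compared. Between the surfaces with THP-1 macrophages it was 0, and 2 without the 2 libraries. The interaction with THP-1 called 1, but 2 with DESeq2, 2 with limma-voom and 3 without the 2 libraries. Leaving out 1 library at a time gave counts of 0 to 1 between the surfaces under cytokines and with THP-1 macrophages, 0 to 2 for cytokines on the fractal surface, 2 to 3 for cytokines on the smooth surface and for THP-1 macrophages on the fractal surface, and 1 to 3 for the interaction with THP-1. Without the 2 libraries the summed level had log2 ratios of -0.47 (fractal THP-1 against smooth THP-1), -1.24 (fractal THP-1 against fractal control) and -0.89 (interaction with THP-1), against -0.22, -0.99 and -0.65 with them; leaving out 1 library gave -0.47 to -0.056, -1.24 to -0.83 and -0.89 to -0.48. The cause was not tested.

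No sign was seen that the replicate numbers pair the samples: over 45 pairs the correlation of same-numbered libraries' deviations from their group means ran from -0.067 to 0.064 and 0 exceeded 0.1. The labels do not state a pairing, and with 3 libraries per group a weak one could be missed. With the replicate block 0 members were called between the surfaces under cytokines, against 1 without it. Over all genes, the calls between the control surfaces were 286, against 513 with DESeq2, 1188 without the 2 libraries and 2755 with only the groups compared, and 131 to 150 without 1 library. Under cytokines they were 719, against 1561 without the 2 libraries, and with THP-1 macrophages 3220, against 1412 with only the groups compared. For the interactions they were 436 with cytokines, against 688 (DESeq2), 1461 (without the 2 libraries) and 983 (only the groups) and down to 271 without 1 library, and 2134 with THP-1, against 3642 without the 2 libraries and 3266 without fractal THP-1 replicate 3 alone. Upper-quartile factors moved the median of all genes between fractal THP-1 and fractal control to 0.13 on the log2 scale, against 0.04 with TMM. Per-length levels of MT2A and MT1E rise when the longest transcript replaces all exons. Depth limits MT1G, which could not be tested, and MT1M, with 241 counts in all.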

Other observations

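Copper, the other metal that metallothioneins buffer, has its own handling genes, of which 8 of 10 could be tested. With fractal THP-1, 1 was higher and 4 lower than in fractal control, where 50.5% of all tested genes were called. CCS, the chaperone that delivers copper to superoxide dismutase, had 28.2 ± 7.27 CPM with fractal THP-1 and 16.2 ± 1.71 CPM in fractal control (SD, n = 3 each), and rose by 0.79 ± 0.15 on the log2 scale (edgeR, adjusted p = 8.19e-05). The genes that fell were COMMD1 (-0.62 ± 0.16, adjusted p = 0.00204), SCO1, which serves copper delivery to cytochrome c oxidase (-0.47 ± 0.10, adjusted p = 0.000375), the exporter gene ATP7A (-0.27 ± 0.11, adjusted p = 0.0463) and the importer gene SLC31A1 (-0.25 ± 0.10, adjusted p = 0.0298). With smooth THP-1, CCS rose (0.39 ± 0.15, adjusted p = 0.0460) and SCO1 fell (-0.26 ± 0.10, adjusted p = 0.0454). These were 1 higher and 1 lower of the 8, where 35.1% of all tested genes were called. ATP7B was higher with fractal THP-1 than with smooth THP-1 (0.65 ± 0.15, adjusted p = 0.00235). It was the 1 gene of the 8 called there, where 20% of all tested genes were called. With cytokines, 0 of the 8 were called on the fractal surface by edgeR, where 25.8% of all tested genes were called. On the smooth surface 1, SCO1, was lower (-0.28 ± 0.10, adjusted p = 0.0459), where 25.7% of all tested genes were called. Without the 2 libraries that stood apart, 6 of the 9 calls of this list over the 9 comparisons remained. Those lost were SLC31A1 (adjusted p = 0.0513) and ATP7A (adjusted p = 0.0606) with fractal THP-1 and SCO1 with smooth cytokines (adjusted p = 0.0700), and CCS rose by 0.55 ± 0.12 with fractal THP-1 (adjusted p = 0.000112).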
